A study of Mus musculus with 6 samples.

Results

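The 10 genes described here are the ligands Dll4, Jag1 and Jag2, the receptors Notch1, Notch2, Notch3 and Notch4, and the target genes Hey1, Heyl and Hes1 of the Notch pathway. They were taken by symbol from the 32285 genes of the deposited matrices, and each symbol matched 1 row. Their unique molecular identifiers (UMIs, 1 for each captured mRNA molecule) were summed for each library and cell type and are given per 1000000 UMIs of that sum (CPM). The study digested the ventricles of male mice aged 8 to 12 weeks with thermolysin and papain, passed the cells through 300 and 40 µm meshes, sorted live non-cardiomyocytes by Calcein-AM and DAPI and sequenced them by droplet-based single-cell RNA-seq of transcript 3′ ends. Wild-type mice (WT) were of strain C57BL/6JRj, and knockout mice (KO) were B6.Cg-Trpm4tm1.2-PG, a knockout of the gene of the cation channel Trpm4. All animals had surgery. The groups were WT and KO mice 24 h after a sham operation, WT and KO mice 24 h after ligation of the LAD, the coronary artery that feeds the front wall of the heart, and WT and KO mice 72 h after ligation. Each group is 1 library of cells pooled from 4 mice, so mice cannot be separated and no group has a replicate.

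Notch signalling passes between touching cells: a ligand on one cell opens the receptor on its neighbour, the receptor is cut by ADAM proteases and gamma-secretase, and its intracellular part enters the nucleus, binds RBPJ and switches on genes of the Hes and Hey families of transcriptional repressors. In vessels, Dll4 and Jag1 on endothelial cells act on Notch1 and Notch4 of neighbouring endothelial cells and on Notch3 of the mural cells (pericytes and smooth muscle cells) that wrap the tube. The pathway is known for arterial identity, for restraint of sprouting and for smooth muscle maturation.

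Dll4, an endothelial ligand, and Notch3, a mural receptor, were among the members that differed most between the layers of the vessel wall, and so the 250 bases upstream of their RefSeq start sites are shown (GRCm38.p6, 5′ to 3′ on the gene's strand). Capitals mark the letters CACGCG, a site form bound by Hes and Hey proteins.
Dll4, chr2:119325534-119325783, plus strand: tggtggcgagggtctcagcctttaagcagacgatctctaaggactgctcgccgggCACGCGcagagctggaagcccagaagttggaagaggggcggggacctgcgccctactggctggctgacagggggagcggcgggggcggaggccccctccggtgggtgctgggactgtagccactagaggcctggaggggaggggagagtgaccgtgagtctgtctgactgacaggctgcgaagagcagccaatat
Notch3, chr17:32166891-32167140, minus strand: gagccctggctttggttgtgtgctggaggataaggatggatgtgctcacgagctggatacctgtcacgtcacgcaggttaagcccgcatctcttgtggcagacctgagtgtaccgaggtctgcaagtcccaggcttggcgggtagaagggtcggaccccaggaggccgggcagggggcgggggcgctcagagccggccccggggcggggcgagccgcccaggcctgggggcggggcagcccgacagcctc
The Dll4 window holds CACGCG once, starting 195 bases before the start site, and the Notch3 window holds none of the 3 motifs searched. The motifs were TGGGAA, the core letters read by RBPJ, and CACGTG and CACGCG, read by Hes and Hey proteins, each on both strands. No site can count for more than 1 motif. Of the 7 members with an entry in the promoter table, none held TGGGAA or CACGTG, and Dll4, Jag1 and Notch2 held CACGCG. Over all 32851 promoters of this length the shares were 21.6% for TGGGAA, 6.02% for CACGTG and 7.62% for CACGCG. A match or its lack describes these letters in this window only. Hes1, Hey1 and Heyl had no entry.

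The deposited libraries held 20995280 to 45649061 UMIs. After filters the 6 libraries kept 3365 to 6824 cells, with a median of 1351 to 8011 UMIs per cell. The KO 72 h library was the shallowest, and 53.9% of its cells had under 1500 UMIs against 6.06 to 10.9% in the others. Trpm4 was at 8.48, 5.48 and 4.23 CPM in the WT libraries and 5.82, 3.39 and 2.56 CPM in the KO libraries of the same conditions: lower in each pair but not absent, and the sources used here do not say which exons the allele removes. Pairs of libraries shared 3 to 13 cell barcodes.

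Cells were clustered without the 10 members and without 39 other Notch pathway genes, and clusters were named from marker lists. The 4 vascular classes compared were capillary-like endothelial cells (4011 cells), arterial-like endothelial cells (665), smooth-muscle-like cells (505) and pericyte-like cells (365). After ligation the classes were small: the 72 h libraries held 71 and 55 capillary-like, 13 and 12 arterial-like, 26 and 15 smooth-muscle-like, and 34 and 21 pericyte-like cells, WT before KO. The arterial list of 10 genes summed to 3586 to 4358 CPM over the libraries in arterial-like and 460.2 to 734 CPM in capillary-like cells. The capillary list of 12 genes was also high in arterial-like cells (20388 to 47317 CPM, against 37499.5 to 67789 CPM in capillary-like cells), and the ranges overlap. The pericyte list of 11 genes summed to 9779 to 26474 CPM in pericyte-like and 5223 to 7745 CPM in smooth-muscle-like cells. The smooth muscle list of 11 genes summed to 43783 to 53176 CPM in smooth-muscle-like cells, and in pericyte-like cells to 15070.3 CPM in the WT 72 h library and 2789 to 6576 CPM in the other 5.

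Per-library values are given in the order WT sham, KO sham, WT ligation 24 h, KO ligation 24 h, WT ligation 72 h and KO ligation 72 h, and mean ± SD is over these libraries (n = 6 unless stated). Classes were compared within libraries with edgeR's quasi-likelihood test, with library as a block and Benjamini-Hochberg adjustment over all genes tested. A difference was called at an adjusted p under 0.05. With the block, the p-values measure how evenly a difference between classes holds over these 6 libraries, which differ in genotype and condition. Differences in level between whole libraries are taken up by the block. The classes were built from other genes of the same cells, so genes that move with those are not independent of the classes. A UMI count from transcript ends does not rank genes against each other, so levels are compared only within a gene.

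The endothelial and the mural layer differed in nearly every member, and the arterial and the capillary class in most. In arterial-like against capillary-like cells, 7 of the 8 members tested were called, 6 higher and 1 lower, where 13.3% of 10957 genes were called (6.7% higher, 6.61% lower). In smooth-muscle-like against pericyte-like cells 3 of 8 members were called, 1 higher and 2 lower, against 26.2% of 9611 genes (15% higher, 11.3% lower), a share not far from the background. In pericyte-like against capillary-like cells all 10 members were called, 5 in each direction, against 39.6% of 11274 genes (18.3% higher, 21.3% lower). In smooth-muscle-like against arterial-like cells 9 of 10 were called, 4 higher and 5 lower, against 51.2% of 10097 genes (29% higher, 22.2% lower). The median absolute log2 difference of the members tested was 0.86, 0.45, 3.02 and 4.32 in these comparisons in turn, and that of all genes tested was 0.23, 0.44, 0.58 and 0.64. Scaling by edgeR's trimmed mean in place of plain CPM adds -0.17, 0.31, -0.35 and 0.23 to every log2 difference of the comparisons, which bears on small differences between the classes.

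**Figure D1:**
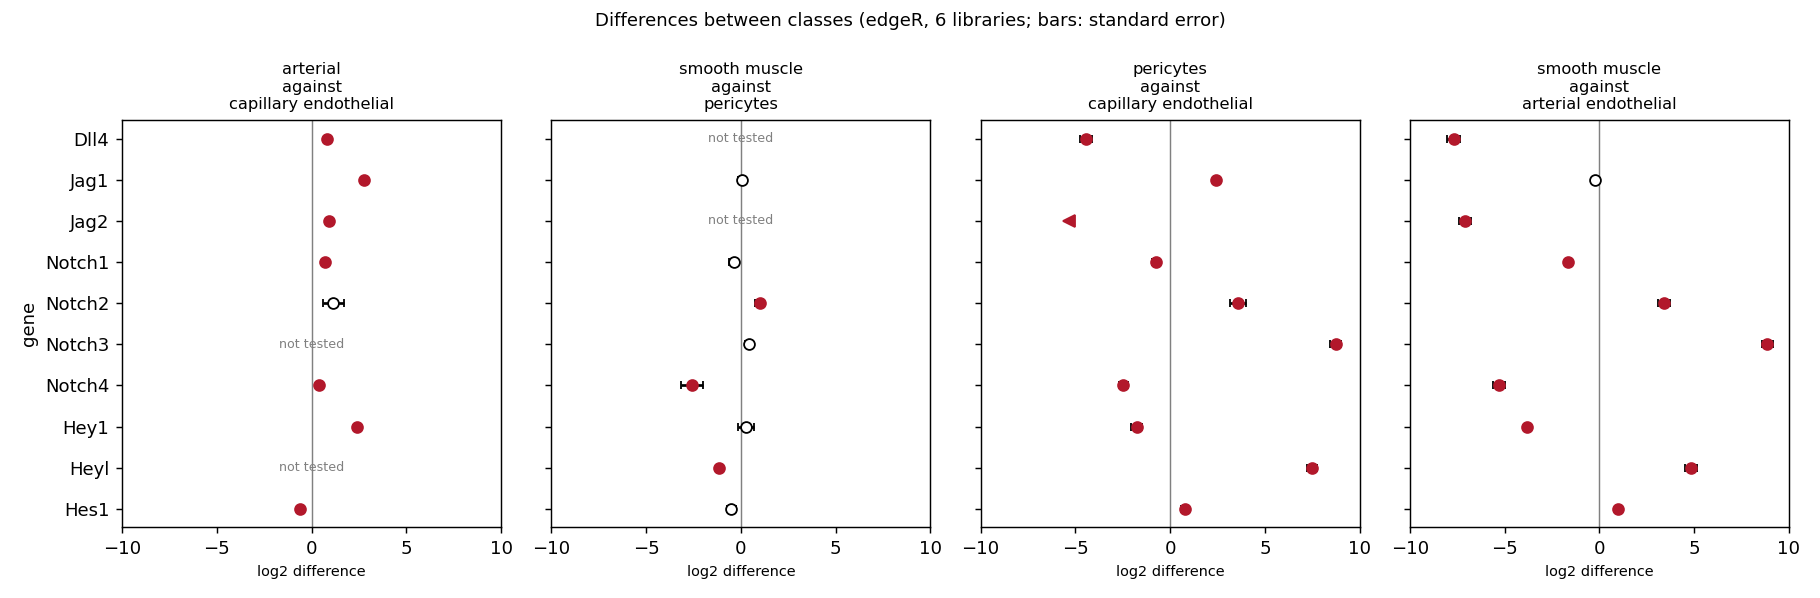
Log2 difference (x axis) of each member (y axis) in the 4 comparisons between classes, with bars of 1 SE. Filled points have an adjusted p under 0.05, open points do not, and the triangle for Jag2 is a bound at 3 counts. Jag1 and Hey1 stand farthest right in arterial-like against capillary-like cells, and Notch3 and Heyl farthest right in the comparisons of mural with endothelial cells.

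Dll4 (ENSMUSG00000027314, chr2:119325784-119335962, plus strand) encodes the Delta-like ligand of arteries and of the tip cells that lead sprouts. Its level was 202, 181, 171, 243, 193 and 185 CPM in arterial-like and 105, 87.97, 118, 127, 138 and 104 CPM in capillary-like cells. The lowest arterial-like library lay above the highest capillary-like library, and the 6 libraries of each class lay close together. The arterial-like level was 1.74 times the capillary-like level, higher in 6 of 6 libraries (log2 difference 0.80, SE 0.12, adjusted p = 8.98e-10). Mural cells held almost none: 0 at the lowest, 5.24 at the median and 17.6 CPM at the highest in pericyte-like cells, and 2 UMIs in all smooth-muscle-like cells together. Pericyte-like cells were lower than capillary-like cells (log2 difference -4.45, SE 0.32, adjusted p = 1.16e-23). In summed counts Dll4 was 324-fold lower in smooth-muscle-like than in arterial-like cells, with a counting interval of 89.3 to 2683, and was called lower (adjusted p = 5.79e-106).

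Jag1 (ENSMUSG00000027276, chr2:137081456-137116644, minus strand) encodes a Serrate-type ligand that endothelial cells present to mural cells and that mural cells also make. Its level was 146, 138, 180.0, 186, 338 and 211 CPM in arterial-like cells and 25.97, 16.9, 28.4, 17.6, 17.3 and 25.9 CPM in capillary-like cells. No arterial-like library came near the capillary-like range, and the WT 72 h library, with 13 arterial-like cells, was the highest. The 6.72-fold difference was the largest of any member between these endothelial classes (log2 difference 2.75, SE 0.13, adjusted p = 7.03e-96). In mural cells the Jag1 level was 125, 121, 229, 167, 149.6 and 193 CPM in pericyte-like and 119, 97.6, 161, 114, 185 and 134 CPM in smooth-muscle-like cells, ranges that overlap each other and the arterial-like range. Pericyte-like cells were above capillary-like cells in 6 of 6 libraries (log2 difference 2.43, SE 0.19, adjusted p = 2.27e-21). Neither smooth-muscle-like against pericyte-like cells (log2 difference 0.04, SE 0.17, adjusted p = 0.902) nor smooth-muscle-like against arterial-like cells (log2 difference -0.25, SE 0.15, adjusted p = 0.146) passed the test, and the sign of the first difference turns with plain CPM scaling (mean log2 difference -0.28). In CPM smooth-muscle-like cells were the lower in 5 of 6 libraries. Against arterial-like cells the smooth-muscle-like level was called lower without the WT 24 h ligation library (adjusted p = 0.027), at resolution 2 (0.0257) and without doublet removal (0.0197, 5 libraries). At resolution 0.5 it was called higher (log2 difference 0.47, adjusted p = 0.00193). The arterial-like class was larger there, with 526 and 659 cells in the WT and KO sham libraries against 271 and 288 at resolution 1. So Jag1 was the one ligand of the 3 with a sizeable level in both layers.

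Jag2 (ENSMUSG00000002799, chr12:112907819-112929776, minus strand) encodes the second Serrate-type ligand. It was measured at 166, 174, 147, 211, 241 and 185 CPM in arterial-like and 85.9, 84.5, 89.5, 91.3, 69.02 and 104 CPM in capillary-like cells. The ranges did not overlap, and the difference was 1.88-fold (log2 difference 0.91, SE 0.12, adjusted p = 1.49e-12). No Jag2 UMI was found in the 365 pericyte-like cells, and 3 were found in the 505 smooth-muscle-like cells. With 3 counts as the floor over all pericyte-like cells, Jag2 was at least 40.7-fold lower there than in capillary-like cells (adjusted p = 2.68e-24). In smooth-muscle-like cells it was 192-fold lower than in arterial-like cells in summed counts (counting interval 65.4 to 935, adjusted p = 1.31e-95).

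**Figure D2:**
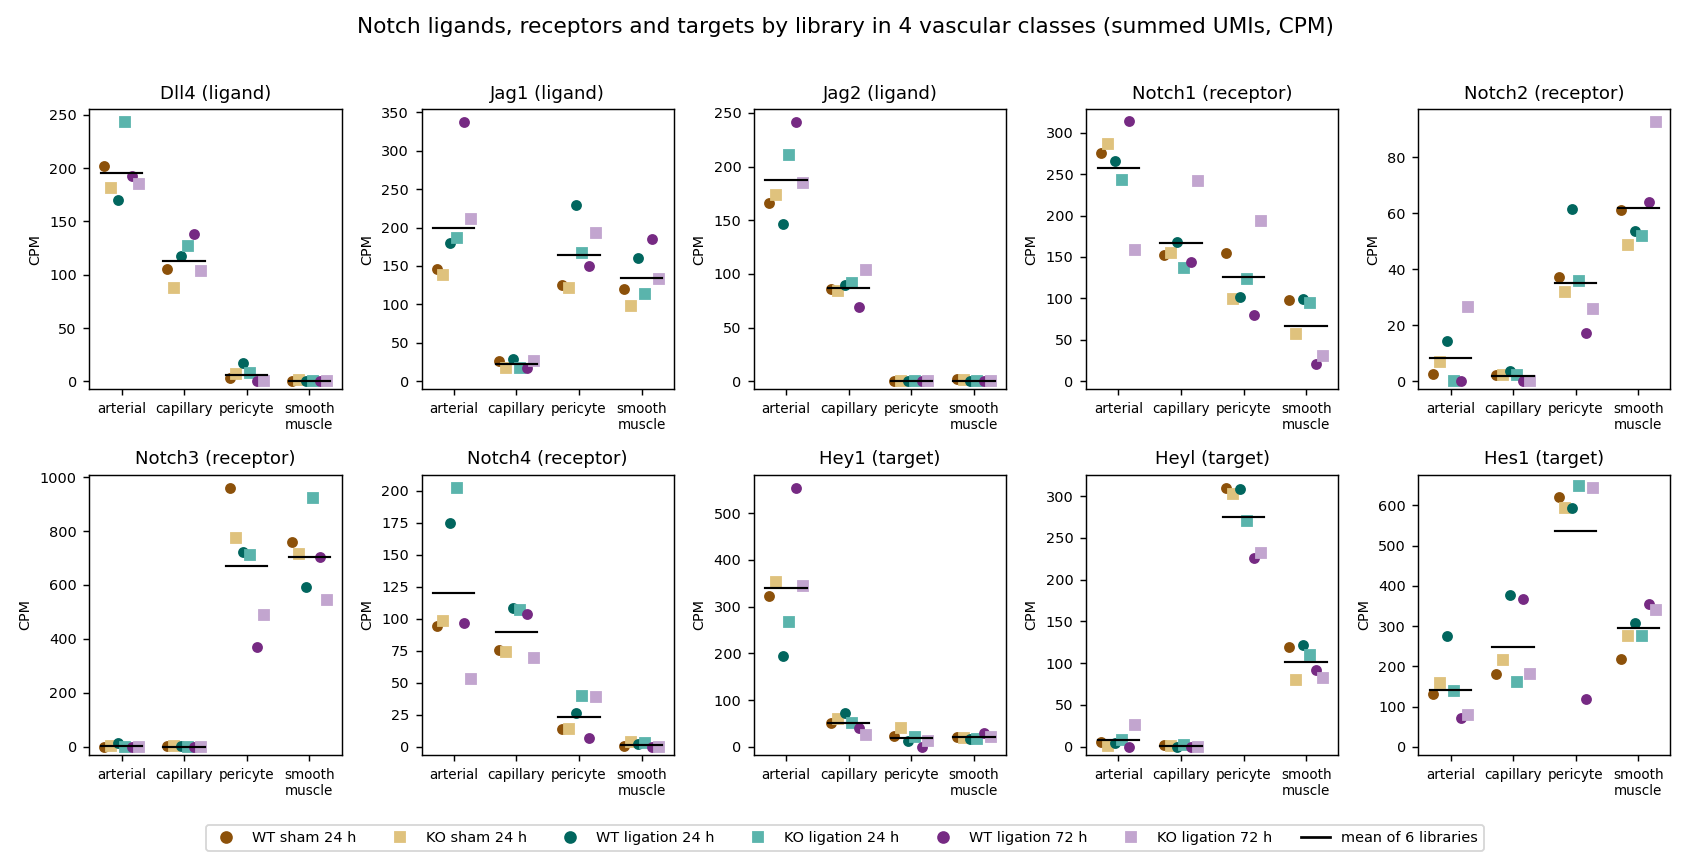
CPM of each member (y axis, linear, own scale in each panel) in the 4 vascular classes, 1 point per library (circles WT, squares KO) with a line at the mean of the 6 libraries. Dll4, Jag2 and Hey1 fall from arterial-like to capillary-like to mural cells, Notch3 and Heyl are near 0 in both endothelial classes, and Jag1 is low in capillary-like cells alone.

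Notch1 (ENSMUSG00000026923, chr2:26457903-26516663, minus strand), the main receptor of endothelial cells, was found in all 4 classes. Its level was 275, 286, 265, 243, 314 and 158 CPM in arterial-like and 152, 155, 168, 137, 144 and 242 CPM in capillary-like cells. The arterial-like value was higher in 5 of 6 libraries and the KO 72 h library went the other way, with 12 and 55 cells, so the ranges overlap. The difference was 1.602-fold (log2 difference 0.68, SE 0.12, adjusted p = 2.03e-07). Notch1 was at 155, 99.5, 101, 123, 80.01 and 193 CPM in pericyte-like and 98.1, 57.1, 99.8, 94.1, 21.3 and 30.8 CPM in smooth-muscle-like cells. It was lower in pericyte-like than capillary-like cells (log2 difference -0.76, SE 0.17, adjusted p = 0.00011) and lower in smooth-muscle-like than arterial-like cells (log2 difference -1.64, SE 0.15, adjusted p = 2.53e-27). The first of these calls was lost at a coarser clustering (adjusted p = 0.0535 at resolution 0.5). In plain summed CPM the pericyte-like level was 75.5% of the capillary-like level, and trimmed-mean scaling adds -0.35 to this log2 difference. The WT sham library went the other way in CPM, at 155 in pericyte-like and 152 in capillary-like cells. Smooth-muscle-like cells were below pericyte-like cells in 6 of 6 libraries without passing the test (log2 difference -0.38, SE 0.22, adjusted p = 0.214), and passed it at resolution 2 (adjusted p = 0.00176) and without doublet removal (0.000522).

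Notch4 (ENSMUSG00000015468, chr17:34564268-34588503, plus strand) is a receptor known mainly from endothelium. It was measured at 94.5, 98.1, 175, 203, 96.5 and 52.8 CPM in arterial-like and 75.9, 73.7, 108, 107, 104 and 69.1 CPM in capillary-like cells. Arterial-like cells were higher in 4 of 6 libraries, chiefly the 24 h ligation libraries, and the ranges overlap. The call was the weakest of the comparison (log2 difference 0.37, SE 0.12, adjusted p = 0.0239). It was lost with DESeq2 (adjusted p = 0.17), without the library block (0.473), without the filter on low counts (0.138), with cells of at least 1500 UMIs only (0.0604), and without the WT sham, KO sham, WT 24 h or KO 24 h ligation library (0.0839, 0.173, 0.0932 and 0.107). Mural cells held less: 6.96 at the lowest, 20.3 at the median and 39.7 CPM at the highest in pericyte-like cells and 0 at the lowest, 1.68 at the median and 3.76 CPM at the highest in smooth-muscle-like cells. Notch4 was lower in pericyte-like than capillary-like cells (log2 difference -2.47, SE 0.26, adjusted p = 6.38e-15) and lower in smooth-muscle-like than arterial-like cells (log2 difference -5.29, SE 0.32, adjusted p = 1.13e-60). It was also 5.995-fold lower in smooth-muscle-like than pericyte-like cells, with no overlap (log2 difference -2.58, SE 0.59, adjusted p = 0.00081), on few UMIs (8 and 29). Without the KO sham or the KO 24 h ligation library under 30 UMIs were left and this difference was not tested, nor was it at resolution 2.

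Notch3 (ENSMUSG00000038146, chr17:32120820-32166852, minus strand) is the receptor that mural cells are known for. Its level was 759, 714, 591, 921, 703 and 544 CPM in smooth-muscle-like and 961, 775, 722, 711, 369 and 490.0 CPM in pericyte-like cells. The pericyte-like values of the 72 h libraries, WT and KO, were the lowest, and the ranges of the classes overlap. Smooth-muscle-like against pericyte-like cells did not pass the test (log2 difference 0.40, SE 0.18, adjusted p = 0.0941), and passed it where a KO 72 h cluster led by pericyte markers, which also held haemoglobin transcripts and was not among the 4 vascular classes, was counted as pericyte-like (log2 difference 0.53, adjusted p = 0.0444). In endothelial cells Notch3 had 20 UMIs over all 4011 capillary-like and 4 over all 665 arterial-like cells, too few to test against each other. It was higher in pericyte-like than capillary-like cells (log2 difference 8.73, SE 0.28, adjusted p = 1.02e-51) and higher in smooth-muscle-like than arterial-like cells (log2 difference 8.85, SE 0.29, adjusted p = 8.99e-202), in 6 of 6 libraries each. The summed Notch3 level of capillary-like cells was 0.206% of that of pericyte-like cells, and the pericyte marker list stood at 0.136% by the same measure. In arterial-like cells the Notch3 level was 0.205% of that of smooth-muscle-like cells and the smooth muscle list 0.223%. The few Notch3 UMIs of endothelial sums thus lie at the level of mural marker RNA in them.

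Notch2 (ENSMUSG00000027878, chr3:98013527-98150361, plus strand), a receptor of many cell types, was at 61.1, 48.8, 53.5, 51.9, 63.9 and 92.5 CPM in smooth-muscle-like and 37.1, 31.99, 61.6, 35.8, 17.4 and 25.8 CPM in pericyte-like cells. Smooth-muscle-like cells were higher in 5 of 6 libraries, with overlapping ranges (log2 difference 0.99, SE 0.26, adjusted p = 0.00312). The call was lost (adjusted p = 0.0812) with the same KO 72 h cluster counted as pericyte-like. Capillary-like cells did not exceed 3.55 CPM in any library. Pericyte-like cells were higher than capillary-like cells (log2 difference 3.57, SE 0.43, adjusted p = 5.3e-12), and smooth-muscle-like cells higher than arterial-like cells (log2 difference 3.40, SE 0.32, adjusted p = 1.04e-24). Arterial-like against capillary-like cells did not pass the test (log2 difference 1.15, SE 0.53, adjusted p = 0.16).

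Hey1 (ENSMUSG00000040289, chr3:8663359-8667256, minus strand) encodes a repressor that Notch switches on in arterial endothelium. It was measured at 323, 352, 194, 267, 555 and 343 CPM in arterial-like and 49.9, 60.04, 72.7, 51.9, 40.3 and 25.9 CPM in capillary-like cells. Every arterial-like library was far above every capillary-like library, and the arterial-like values themselves spread widely, from the WT 24 h ligation library to the WT 72 h library. The difference was 5.25-fold (log2 difference 2.39, SE 0.12, adjusted p = 1.14e-81). Mural levels were low: 0 at the lowest, 16.5 at the median and 39.1 CPM at the highest in pericyte-like cells and 16.2 at the lowest, 20.04 at the median and 28.4 CPM at the highest in smooth-muscle-like cells. Hey1 was lower in pericyte-like than capillary-like cells (log2 difference -1.76, SE 0.29, adjusted p = 1.18e-07), a call lost at resolution 0.5 (adjusted p = 0.506), and lower in smooth-muscle-like than arterial-like cells (log2 difference -3.81, SE 0.18, adjusted p = 2.09e-93). At resolution 0.5 the capillary-like class held fewer cells than at resolution 1, 1097 against 1291 in the WT sham library. At resolution 1 a capillary-like cluster led by Rbp7 made up 246 of those 1291 cells and had a Hey1 mean of 143 CPM. The largest capillary-like cluster, led by Aqp1, was at 14.1 ± 12.6 CPM, not above the pericyte-like mean of 18.1 ± 13.1 CPM. The cluster led by Rsad2 was at 40.7 CPM.

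Heyl (ENSMUSG00000032744, chr4:123233556-123249875, plus strand), a related repressor known from mural cells, showed the reverse layout. Its level was 310.1, 302, 308, 270.2, 226 and 232 CPM in pericyte-like and 119, 80.4, 122, 110.3, 92.3 and 82.2 CPM in smooth-muscle-like cells. Every pericyte-like library was above every smooth-muscle-like library, a 2.21-fold difference (log2 difference -1.15, SE 0.17, adjusted p = 2.33e-06). In endothelial cells Heyl had 17 UMIs over all capillary-like and 10 over all arterial-like cells. It was higher in pericyte-like than capillary-like cells (log2 difference 7.47, SE 0.26, adjusted p = 1.39e-48) and in smooth-muscle-like than arterial-like cells (log2 difference 4.83, SE 0.31, adjusted p = 4.9e-55). The summed Heyl level of arterial-like cells was 3.68% of that of smooth-muscle-like cells, above the smooth muscle list at 0.223%. In capillary-like cells Heyl was at 0.436% of its pericyte-like level and the pericyte list at 0.136%. The source of these few Heyl UMIs was not tested. The 2 repressors thus marked opposite sides of the vessel wall, Hey1 the arterial lining and Heyl the mural coat.

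Hes1 (ENSMUSG00000022528, chr16:30064384-30067796, plus strand), the most widely used Notch target and also driven by other signals, was present in all 4 classes and did not follow the arterial ligands. Its level was 182, 215, 378, 162, 368 and 181 CPM in capillary-like and 130.5, 158, 275, 138, 72.3 and 79.2 CPM in arterial-like cells. The arterial-like value was the lower in 6 of 6 libraries, though the ranges overlap, and it was the member called lower in this comparison (1.54-fold lower, log2 difference -0.62, SE 0.12, adjusted p = 9.19e-06). In mural cells Hes1 was at 620.2, 594, 594, 648, 118 and 645 CPM in pericyte-like and 218, 275, 307, 276, 355 and 339 CPM in smooth-muscle-like cells. The WT 72 h library was the low one among pericyte-like sums. There its smooth muscle list was the highest of the 6, its fibroblast list stood at 3187 CPM against 907 to 2695 CPM in the others, and the mean of per-cell CPM of Hes1 was 240.0. In that library 5 of 34 cells held 58.9% of the UMIs, and in the KO 72 h library, where Hes1 was not low, 5 of 21 cells held 54.6%. Pericyte-like cells were above capillary-like cells in 5 of 6 libraries (log2 difference 0.77, SE 0.20, adjusted p = 0.000765). That call was lost with DESeq2 (adjusted p = 0.101) and with the KO 72 h pericyte-marker cluster added (0.245). Smooth-muscle-like against pericyte-like cells did not pass the test over all libraries (log2 difference -0.50, SE 0.22, adjusted p = 0.101), and without the WT 72 h library smooth-muscle-like cells were lower (log2 difference -0.82, adjusted p = 3e-06). They were also lower at resolution 2 (-0.87, adjusted p = 9.57e-13) and without doublet removal (-0.89, adjusted p = 2.37e-11). Smooth-muscle-like cells were higher than arterial-like cells (log2 difference 0.96, SE 0.14, adjusted p = 6.25e-11).

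The capillary-like class held 3 clusters, and the members were not even across them. The cluster led by Aqp1 and Timp4 had a Dll4 level of 91.6 ± 10.0 CPM, that led by Rsad2 and Slc26a10 100.4 ± 71.7 CPM, and that led by Rbp7, Igfbp3, Btnl9 and Gja1 176 ± 19.8 CPM (n = 5 libraries). The last value lies beside the arterial-like mean of 196 ± 25.5 CPM. The Dll4 mean of the Rsad2-led cluster includes the WT 72 h library at 245 CPM, with 11 UMIs in 23 cells. In counts summed over all libraries that cluster was at 66.6 CPM and the Aqp1-led cluster at 84.8 CPM, so the order of these 2 turns. Hey1 stepped up through the same clusters, with means of 14.1 ± 12.6, 40.7 ± 22.3 and 143 ± 42.4 CPM and then 339 ± 121 CPM in arterial-like cells. Notch1 was at 117 ± 13.4, 149.6 ± 18.5 and 288 ± 139 CPM, and Notch4 at 83.3 ± 37.96, 51.05 ± 19.9 and 128 ± 18.9 CPM. The Notch1 mean of the Rbp7-led cluster rests on the KO 72 h library, with 17 cells, 18 UMIs and 532 CPM: without it the mean was 227 ± 34.3 CPM (n = 4), below the arterial-like mean of 257 CPM, and with it above. The Notch4 mean of that cluster was above the arterial-like mean of 119.9 CPM by less than 1 SD of the latter. Jag1 was far below the arterial-like level in all 3 clusters, at 14.1 ± 8.47, 30.97 ± 11.1 and 34.2 ± 16.3 CPM against 199.8 ± 72.8 CPM. Jag2 was similar in the 3 clusters, at 79.02 ± 15.3, 101 ± 25.03 and 97.7 ± 31.9 CPM. Hes1 ran the other way, at 256 ± 67.1, 246 ± 171 and 190.5 ± 80.98 CPM. These clusters were drawn from the same cells, so their differences are descriptions. With the Rbp7-led cluster left out, a step chosen after the data were seen, 7 members were called in arterial-like against capillary-like cells, with log2 differences of 1.13 for Dll4, 2.87 for Jag1, 0.89 for Jag2, 0.94 for Notch1, 0.54 for Notch4, 3.49 for Hey1 and -0.72 for Hes1.

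**Figure D3:**
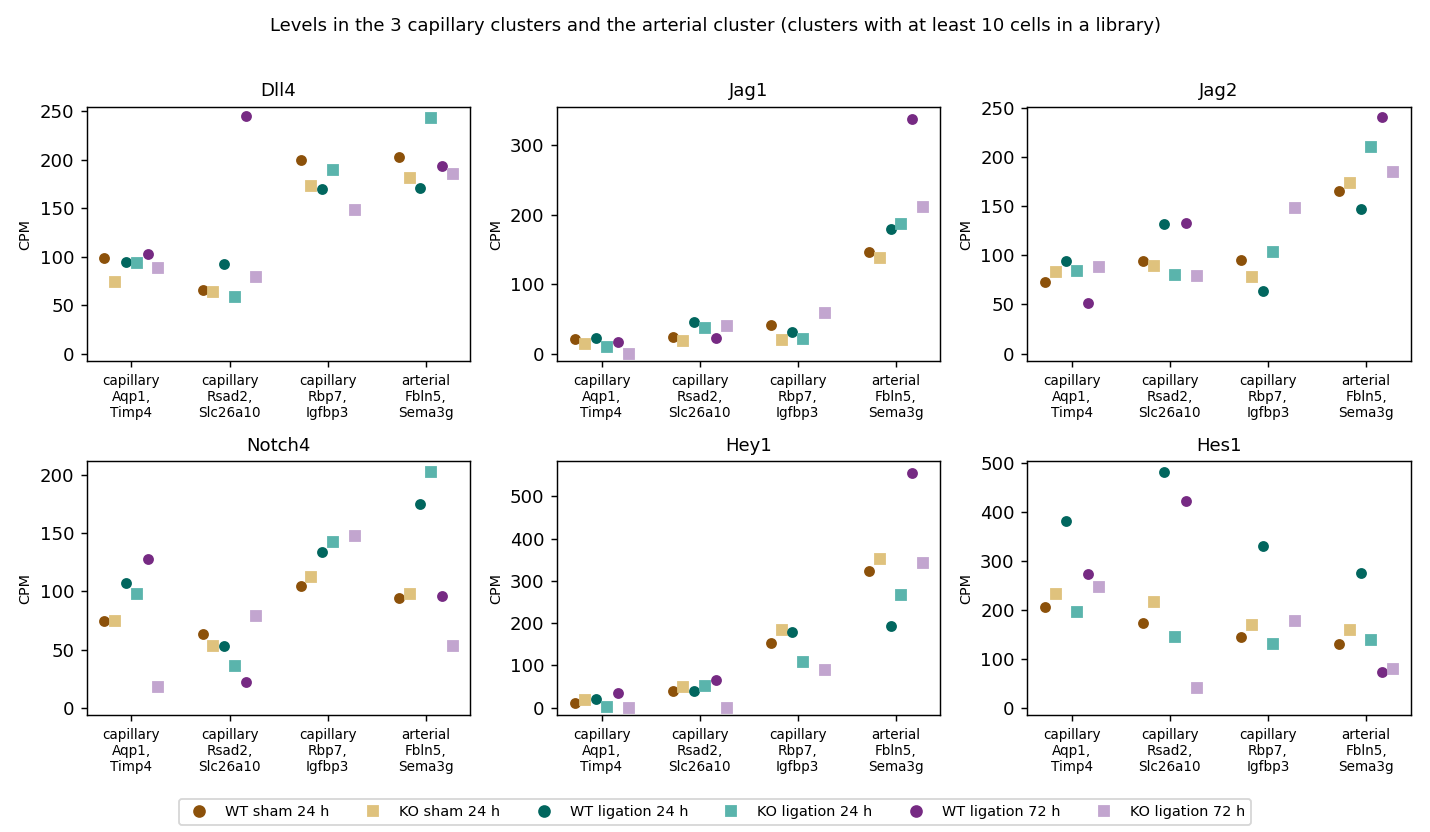
CPM (y axis, linear) of 6 members in the 3 capillary-like clusters and the arterial-like cells (x axis, by leading genes), 1 point per library with at least 10 cells, coloured by library. Dll4, Notch4 and Hey1 have higher means in the Rbp7-led cluster than in the other capillary-like clusters, Jag1 is high in arterial-like cells alone, and Hes1 has its lowest mean in arterial-like cells.

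Across all the named classes Notch1, Notch2 and Hes1 were spread widely, and the highest means of the other 7 members were in endothelial or mural classes. Dll4 had its highest mean in arterial-like cells, followed by interferon-marked (149 ± 45.98 CPM, n = 5 libraries), capillary-like (113 ± 17.96) and angiogenic-like endothelial cells (113 ± 45.5), whose neighbours in this order lie within 1 SD of each other except the first pair. Erythroid-marked cells had a Dll4 mean of 42.2 CPM, venous-like cells of 29.7 CPM and endocardial-like cells 15.2 CPM. Of the 92 erythroid-marked Dll4 UMIs, 89 lay in the 1099 cells outside the KO 72 h cluster led by pericyte markers. Those 1099 cells also held 70 of the 71 Jag2 UMIs of the class. The part of endothelial RNA in them was not tested. Jag1 ran from arterial-like (199.8 ± 72.8) to pericyte-like (164 ± 41.7) and smooth-muscle-like cells (135 ± 32.3), which do not differ beyond their spread, and the next class was at 65.3 CPM in lymphatic-like cells. Jag2 was highest in arterial-like cells (187 ± 33.9), then capillary-like cells (87.3 ± 11.3), and reached 47.5 CPM in venous-like cells.

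The receptors differed most in where else they were found. Notch1 was as high in endocardial-like cells (274 ± 6.34 CPM, n = 4 libraries) as in arterial-like cells (257 ± 53.6), within their spread, and it also reached 101 CPM in neutrophil-like and 93.5 CPM in platelet-like cells. Of the 117 Notch1 UMIs of the 655 platelet-like cells, 70 lay in 105 cells that were clustered with vascular cells. Those 105 cells also held 37 of the 40 Hey1, 38 of the 40 Jag2 and 22 of the 24 Dll4 UMIs of the class. Notch4 followed the endothelial classes, from arterial-like (119.9 ± 56.7) through angiogenic-like (93.2) and capillary-like (89.5 ± 18.4) to endocardial-like cells (36.7). Notch3 was mural, at 706 ± 133 CPM in smooth-muscle-like and 671 ± 211 CPM in pericyte-like cells. Next came erythroid-marked cells, at 38.98 ± 24.4 CPM on 112 UMIs, of which 105 lay in the cluster of 350 cells led by pericyte markers that the haemoglobin markers had placed there. The other 1099 erythroid-marked cells held 7 Notch3 UMIs, or 4.06 CPM (95% interval 1.63 to 8.37). Fibroblast-like cells were at 12.6 CPM. Notch2 was the one receptor led by blood cells: its highest mean was in neutrophil-like cells (129.5 ± 21.5 CPM), followed by B-cell-like (78.4), fibroblast-like (66.9), smooth-muscle-like (61.95 ± 16) and monocyte- or macrophage-like cells (56.98).

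Of the targets, Hey1 was at 339 ± 121 CPM in arterial-like cells and at 78.7 CPM in interferon-marked endothelial cells, its next class. Heyl was led by pericyte-like (275 ± 38.3), smooth-muscle-like (101 ± 18.5) and fibroblast-like cells (59.9 ± 25.7). Hes1 ranged from 536 ± 206 CPM in pericyte-like cells to 5.26 CPM in neutrophil-like cells, and 8 classes, 7 of them endothelial, had means of 142 to 248 CPM.

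**Figure D4:**
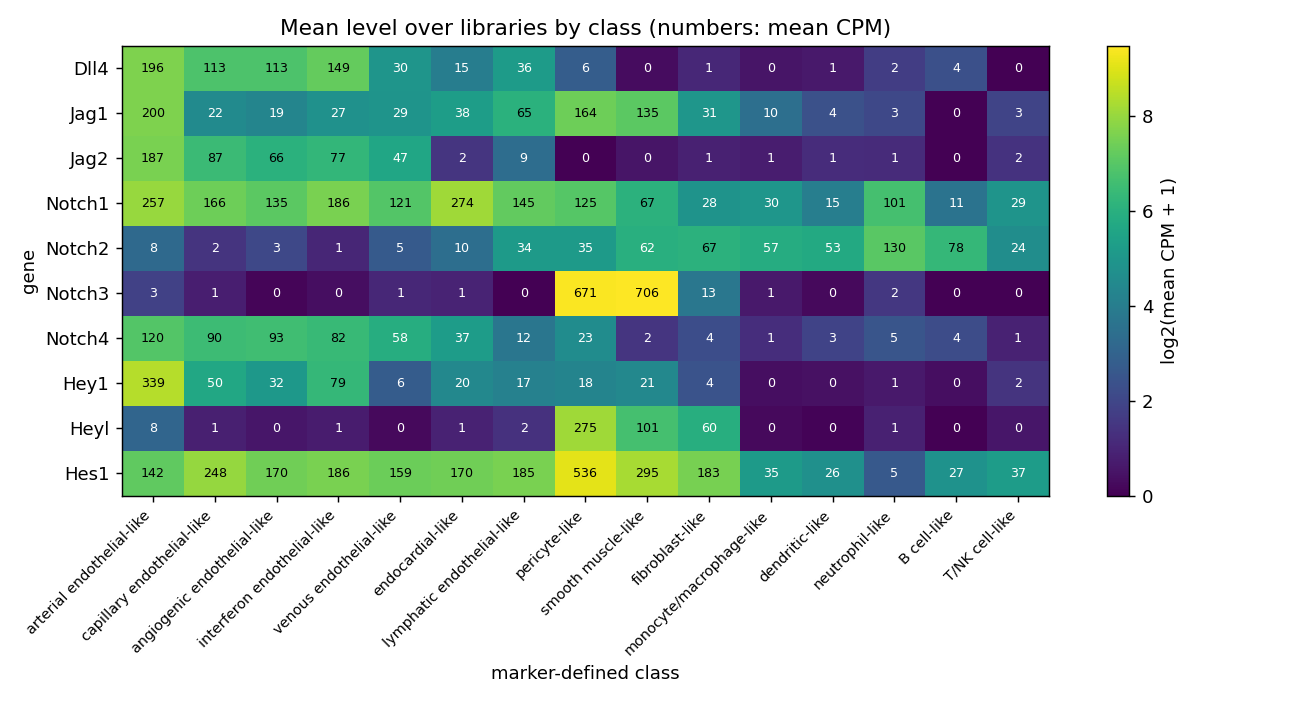
Mean CPM over libraries (printed in each cell, coloured by log2 of the mean CPM plus 1) of each member (rows) in 15 named classes (columns). The map is to be read along rows, since UMI counts do not rank genes against each other; Dll4, Jag2 and Hey1 are highest in arterial-like cells, and Notch3 and Heyl in mural cells.

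The same layout was seen in the share of cells with at least 1 UMI, after each cell was thinned to 1000 UMIs. Dll4 was found in 17.5% of arterial-like and 9.37% of capillary-like cells (45.7% and 25.1% before thinning), Jag2 in 15.1% and 7.503%, and Hey1 in 27.9% and 5.24%. Notch3 was found in 53.1% of smooth-muscle-like and 51.5% of pericyte-like cells (95.05% and 80.0% before thinning), and Heyl in 8.75% and 29.3%. Of the neutrophil-like cells, which should lack these genes, 26 were clustered with vascular cells and held 45 of the 51 Notch3, 15 of the 17 Heyl, 10 of the 14 Hey1, 14 of the 27 Dll4 and 9 of the 17 Jag2 UMIs of the class, a split made after these values were seen. In the other 5405 cells the share after thinning was 0.0380% for Dll4, 0.0380% for Jag2, 0.0570% for Notch3 and 0.0380% for Heyl. For Hey1 it was 0 of 5262 cells, with an exact 95% upper limit of 0.0701%. The Notch3 share of capillary-like cells was 0.227% (exact 95% interval 0.104 to 0.430%), and the interval of those neutrophil-like cells was 0.0118 to 0.167%. Median depth before thinning was 3656 UMIs in arterial-like, 3054 in capillary-like, 3174 in pericyte-like, 6004 in smooth-muscle-like and 2457 in neutrophil-like cells. Thinning left out 8, 39, 10, 2 and 143 of their cells in turn.

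In the mural sums some endothelial members stood above the general endothelial markers. The 6 general endothelial markers summed in pericyte-like cells to 1.44% of their capillary-like level, whereas Dll4 stood at 6.38%, Notch4 at 25.6%, Hey1 at 33.4% and Notch1 at 75.5% of theirs. In smooth-muscle-like cells the endothelial list stood at 0.931% of its arterial-like level, Dll4 at 0.309%, Jag2 at 0.520%, Notch4 at 2.22% and Hey1 at 6.09%. The part of endothelial RNA in the mural values was not tested beyond these shares.

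The 39 other pathway genes, a list chosen with results of these data known, were called in 4 of 32 tested, 6 of 31, 17 of 34 and 17 of 33 in the 4 comparisons in turn, beside 13.3%, 26.2%, 39.6% and 51.2% of all genes. Their median absolute log2 difference was 0.23, 0.40, 0.51 and 0.65. In arterial-like against capillary-like cells 3 were higher and 1 lower: the protease gene Furin (0.65), the glucosyltransferase gene Poglut1 (0.63) and the nuclear repressor gene Spen (0.38) were higher, and Lfng, the lunatic fringe enzyme that adds a sugar to Notch and shifts its choice of ligand, was lower (-0.81, all log2 differences). These 4 were below a log2 difference of 1 and are named because the count is small. In smooth-muscle-like against pericyte-like cells 3 of 31 were higher and 3 lower. Nrarp, a target that dampens the Notch complex, was at 209 ± 47.9 CPM in smooth-muscle-like and 75.6 ± 39.3 CPM in pericyte-like cells (log2 difference 1.75, adjusted p = 6.01e-08). The target Hey2 was at 90.8 ± 24.1 and 45.3 ± 23.8 CPM (log2 difference 1.18, adjusted p = 5.69e-05). Both targets were thus higher in smooth-muscle-like cells, where Heyl was lower. The Deltex-family genes Dtx3 (log2 difference -1.13, adjusted p = 3.86e-06) and Dtx4 (log2 difference -3.75, adjusted p = 4e-07) were lower, and Mib1, a ubiquitin ligase needed in cells that present ligand, was higher (log2 difference 1.0, adjusted p = 0.0037).

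In pericyte-like against capillary-like cells 8 of 34 tested pathway genes were higher and 9 lower. The higher ones included Hey2 (7.25), Dtx4 (5.99), Dtx3 (3.99), the Numb relative Numbl (1.75), the gamma-secretase subunit gene Aph1b (1.23) and the coactivator gene Maml3 (1.08). The lower ones included the receptor proteases Adam10 (-1.82) and Adam17 (-1.49), Numb (-1.29), and Dll1, Lfng and Mfng, which had 1, 2 and 0 UMIs in pericyte-like cells and 217, 281 and 1049 in capillary-like cells. In smooth-muscle-like against arterial-like cells 7 of 33 were higher, led by Hey2 (5.67), Dtx3 (3.28), Maml3 (3.03), Numbl (1.67), Nrarp (1.66) and Aph1b (1.59). There 10 were lower, among them Numb (-2.17) and Adam10 (-1.95), while Dll1, Lfng and Mfng had 3 UMIs each in smooth-muscle-like cells. Fringe genes Lfng and Mfng were thus near or at 0 in both mural classes, next to the ligand genes Dll4 and Jag2.

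The conditions were compared as ratios of CPM between single libraries within a class, with exact 95% intervals that cover counting error only. With 1 library per group there is no test, and an effect of genotype or condition cannot be told apart from a difference between pools or libraries. From sham to ligation at 24 h, no member differed at least 2-fold in the same direction in WT and KO in any of the 4 classes. The background for that criterion was 1.02% of genes in capillary-like, 1.72% in arterial-like, 2.43% in pericyte-like and 1.43% in smooth-muscle-like cells, and 7, 7, 5 and 7 members had the 20 UMIs needed.

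Hes1 differed in direction between the genotypes. In capillary-like cells its ratio of ligation at 24 h to sham was 2.08 (95% interval 1.85 to 2.35) in WT and 0.754 (95% interval 0.636 to 0.890) in KO, from the levels listed above. In arterial-like cells the ratio was 2.11 (95% interval 1.53 to 2.87) in WT and 0.870 (95% interval 0.496 to 1.43) in KO, and in smooth-muscle-like cells 1.41 (95% interval 1.13 to 1.76) and 1.003. The level was above sham in WT and near or below it in KO in these 3 classes, while in pericyte-like cells the KO to WT ratio at 24 h after ligation was 1.09. At that time the KO to WT ratio was 0.428 (95% interval 0.354 to 0.515) in capillary-like and 0.501 (95% interval 0.274 to 0.873) in arterial-like cells. At 72 h it was 0.493 (95% interval 0.286 to 0.818) in capillary-like cells, on 71 and 55 cells.

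The Hes1 pattern was present inside each capillary-like cluster. From sham to ligation at 24 h the WT level went from 207 to 381 CPM in the Aqp1-led cluster, from 174 to 481 CPM in the Rsad2-led cluster and from 145 to 331 CPM in the Rbp7-led cluster. In KO it went from 233 to 196, from 215 to 145 and from 169 to 129 CPM. The counting intervals of sham and ligation do not overlap in WT in any of the 3 clusters, and in KO they overlap in all 3. The shares of the clusters differed between conditions: the Rsad2-led cluster made up 42.99% and 41.6% of capillary-like cells in the WT and KO sham libraries and 15.9% and 13.96% at 24 h after ligation. In the Myh11-led cluster that held 449 of the 505 smooth-muscle-like cells, Hes1 went from 235 to 442 CPM in WT and from 331 to 293 CPM in KO. Hes1 is also an early-response gene, and 10 immediate-early genes (a list added after Hes1 was seen) were summed in the same libraries. Their summed level was 938, 819.7, 1416, 1076, 1749 and 1573 CPM in capillary-like, 1020.5, 898, 1554, 996, 1857 and 1452 CPM in arterial-like, 644, 668, 2051, 1085, 675 and 3095 CPM in pericyte-like and 791, 675, 1314, 733, 532 and 966 CPM in smooth-muscle-like cells. Their part in the Hes1 difference was not tested.

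**Figure D5:**
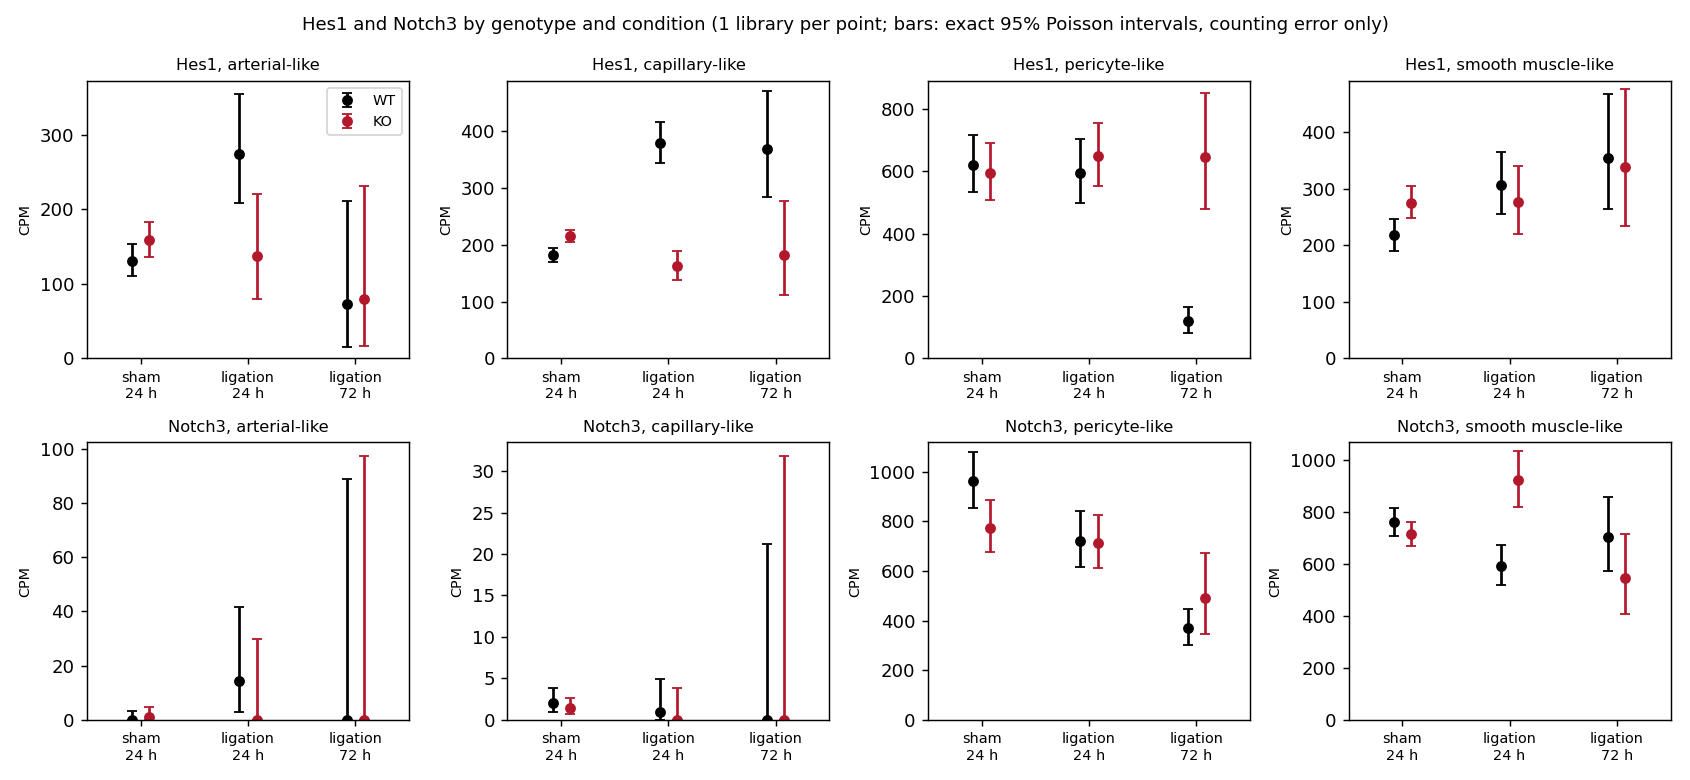
CPM (y axis, linear) of Hes1 and Notch3 by condition (x axis) and genotype in the 4 vascular classes, 1 library per point, with exact 95% Poisson bars that cover counting error only. Hes1 is higher after ligation at 24 h than after sham in WT capillary-like and arterial-like cells and not in KO, and the pericyte-like Hes1 value of the WT 72 h library is low.

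Notch4 was higher 24 h after ligation than after sham in both genotypes of the arterial-like and capillary-like classes. The ratio to sham was 1.86 (95% interval 1.24 to 2.72) in WT and 2.07 (95% interval 1.28 to 3.21) in KO arterial-like cells, with 45 and 36 cells after ligation, and 1.43 (95% interval 1.15 to 1.76) and 1.45 (95% interval 1.16 to 1.79) in capillary-like cells. In the Rbp7-led cluster it went from 104 (83.9 to 128) to 134 (98.5 to 177) CPM in WT and from 112 (95.1 to 132) to 142 (107 to 185) CPM in KO (95% counting intervals in parentheses). In the Rsad2-led cluster it went from 62.97 (51.8 to 75.9) to 52.7 (22.8 to 104) CPM in WT and from 53.3 (44.9 to 62.8) to 36.2 (11.7 to 84.4) CPM in KO, with 8 and 5 UMIs after ligation. In the Aqp1-led cluster Notch4 went from 74.7 (62.5 to 88.5) to 107 (82.7 to 136) CPM in WT. In KO it went from 74.9 (65.6 to 85.0) to 97.9 (70.9 to 132) CPM there. All these pairs of intervals overlap, and a difference between the clusters was not tested. The Rsad2-led cluster, the lowest in Notch4, went as a share of capillary-like cells from 42.99% to 15.9% in WT and from 41.6% to 13.96% in KO. Its part in the class ratios was not tested. Dll4 in capillary-like cells had a ratio of 1.12 in WT and 1.44 (95% interval 1.18 to 1.75) in KO, while the Rbp7-led cluster, the one richest in Dll4, went as a share of capillary-like cells from 19.1% in both sham libraries to 33.9% in WT and 44.2% in KO. The part of these shares in the class ratio was not tested.

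In arterial-like cells Hey1 was lower at 24 h after ligation than after sham in WT, with a ratio of 0.601 (95% interval 0.424 to 0.832), and in KO the ratio was 0.760. Between ligation at 24 h and 72 h the WT ratio was 2.86 (95% interval 1.64 to 4.87), on 45 and 13 cells. Jag1 in pericyte-like cells had a ratio of ligation at 24 h to sham of 1.84 (95% interval 1.18 to 2.88) in WT and 1.38 (95% interval 0.858 to 2.24) in KO.

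Notch3 in smooth-muscle-like cells also differed in direction between the genotypes at 24 h after ligation. The ratio to sham was 0.779 (95% interval 0.672 to 0.9002) in WT and 1.29 (95% interval 1.13 to 1.47) in KO, and the KO to WT ratio after ligation was 1.56 (95% interval 1.31 to 1.86). Within the Myh11-led cluster the WT level went from 799 (741 to 859) to 766 (666 to 878) CPM and the KO level from 848 (794 to 906) to 971 (859 to 1093) CPM (95% counting intervals), and the intervals overlap in both genotypes. The remaining 56 smooth-muscle-like cells, led by Tagln and Ogn, held 334 CPM of Notch3 over all libraries. They made up 18 of 150 cells after sham and 8 of 47 after ligation at 24 h in WT, and 26 of 212 and 3 of 55 in KO, and their part in the class ratios was not tested. In pericyte-like cells of WT mice Notch3 had a ratio of 0.751 from sham to ligation at 24 h and 0.511 from there to 72 h, where the median log2 ratio of all genes was -0.21. From 24 h to 72 h the level went from 722 (616 to 841) to 369 (302 to 446) CPM (95% counting intervals). That 72 h sum is the one described for Hes1, in which 5 of 34 cells held 58.9% of the UMIs. Notch1 in smooth-muscle-like cells was lower at 72 h than at 24 h after ligation in WT, with a ratio of 0.213 (95% interval 0.0423 to 0.669), and its KO to WT ratio in sham libraries was 0.582.

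Angiogenic-like endothelial cells, outside the 4 classes compared, held more Dll4 and Notch4 at 24 h after ligation than after sham. Dll4 was at 71.3, 81.1, 188, 146, 83.1 and 108 CPM over the 6 libraries in the order given, and its ratio of ligation at 24 h to sham was 2.63 (95% interval 2.03 to 3.45) in WT and 1.802 (95% interval 1.38 to 2.35) in KO. Notch4 was at 73.04, 59.6, 127, 122, 77.7 and 100.4 CPM, with ratios of 1.73 (95% interval 1.31 to 2.31) and 2.04 (95% interval 1.51 to 2.76). Both genes were highest in the 24 h ligation libraries and lower at 72 h, when the class held 81 and 35 cells. The class holds 2 clusters, one of 773 cells led by AA467197, Apln and Pgf and one of 218 cells led by Dct, Fxyd6 and Kit. The latter made up 79 of 219 cells after sham and 22 of 203 after ligation at 24 h in WT, and 90 of 283 and 12 of 170 in KO. In the Apln-led cluster Dll4 went from 57.2 (41.2 to 77.3) to 193 (166 to 223) CPM in WT and from 74.3 (59.4 to 91.9) to 149 (121 to 182) CPM in KO, and Notch4 from 58.6 (42.4 to 78.9) to 125 (104 to 149.5) and from 59.5 (46.2 to 75.4) to 124 (98.3 to 154) CPM (95% counting intervals). None of these pairs of intervals overlap. In the Dct-led cluster Dll4 went from 96.9 (68.9 to 132) to 147 (87.2 to 232) CPM in WT and from 95.6 (71.2 to 126) to 114 (41.7 to 247) CPM in KO, with 18 and 6 UMIs after ligation and intervals that overlap. Notch1 had ratios of 1.61 (95% interval 1.29 to 2.02) and 1.43 (95% interval 1.13 to 1.82), whereas Jag2 had ratios of 0.904 (95% interval 0.662 to 1.23) and 0.999 (95% interval 0.724 to 1.36) and Hey1 of 1.19 and 1.03. Hes1 was at 134, 150.2, 322, 191, 89.5 and 133 CPM, with ratios of 2.405 (95% interval 1.98 to 2.93) in WT and 1.27 (95% interval 1.02 to 1.57) in KO. No member passed 2-fold in both genotypes in the class sums, against 3.48% of 7980 genes. This class was singled out after its values were seen, it comes from clusters of the same cells, and there is 1 library per group, so the values are descriptions.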

How the data were processed

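Live non-cardiomyocytes of 6 libraries, each a pool of 4 mice, were measured by 3′-end droplet RNA-seq. The deposited values are UMI counts per gene and cell, made by the authors with Cell Ranger 6.0.0 on mm10, per the submitters' processing notes. Cells with at least 200 genes and at most 20% mitochondrial UMIs were kept. Doublets were the highest scores of scrublet, removed at 0.8% per 1000 cells, because its automatic threshold marked under 0.5% in most libraries. Clustering (scanpy 1.11.5, leidenalg 0.10.2; 2000 variable genes, 30 components, 20 neighbours, resolution 1) used no member, pathway, mitochondrial, ribosomal or haemoglobin gene and not Trpm4. Vascular clusters were clustered again. A cluster was named from at least 3 markers. The choice of vascular clusters and the naming thresholds were set after clusters and their leading genes, which at times included Hey1, Dll4 or Notch3, had been seen. UMIs were summed per library and class, for sums of at least 10 cells. Genes with at least 30 UMIs in a pair of classes were tested with edgeR 4.0.16 (R 4.3.3; trimmed-mean scaling, quasi-likelihood, library as block, Benjamini-Hochberg adjustment). The library pairs the classes because both come from the same pooled mice. DESeq2 1.42.0, other filters, resolutions, depths, leaving out each library, and 3 settings added after the data were seen were alternatives. A cluster led by pericyte markers, with 322 of 350 cells from the KO 72 h library and a median of 853.5 UMIs, also held haemoglobin transcripts, was counted with erythroid cells and stayed out of the 4 vascular classes. Scripts were tested on simulated data. The summed depth sets the precision: a class sum after ligation holds 12 to 351 endothelial cells, and intervals cover counting error only. The members and gene lists were chosen with earlier results of these data known. All 10 members are named, and pathway genes where called with an absolute log2 difference of at least 1. For each member the 2 genes most correlated with it over 19 classes are named. Gene positions are from GENCODE M21 (GRCm38) and promoters from RefSeq (GRCm38.p6). Other packages were scipy 1.17.1, numpy 2.4.6 and pandas 2.3.3. The values of 1 gene of the pathway list are not reported here.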

Additional observations from a re-analysis of the deposited data

Results flagged for a closer look

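Hes1 in capillary-like cells moved in opposite directions in the genotypes, with a ratio of ligation at 24 h to sham of 2.08 in WT and 0.754 in KO. Notch3 in smooth-muscle-like cells did so too, with 0.779 in WT and 1.29 in KO. Within the Myh11-led cluster, with 449 of the 505 cells, the WT level went from 799 (741 to 859) to 766 (666 to 878) CPM and the KO level from 848 (794 to 906) to 971 (859 to 1093) CPM, with counting intervals that overlap in both. Each ratio rests on 1 library per group, and the difference between the genotypes was not tested.

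Mural members also gave UMIs in cells that no comparison used. The cluster led by pericyte markers, of which 322 of 350 cells came from the KO 72 h library with a median of 853.5 UMIs, held 187 CPM of Notch3, 63.3 CPM of Heyl, 104 CPM of Hes1 and 94.9 CPM of Jag1 in that library. The level that 3 counts would give there is 8.63 CPM. In the pericyte-like cells of the same library, 21 cells, these genes were at 490.0, 232, 645 and 193 CPM. Notch2 went the other way, at 115 CPM (40 UMIs) in the cluster and 25.8 CPM (2 UMIs) in those pericyte-like cells.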

How the results depend on the processing

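Over all alternatives, 84 values of the counts of called members stayed within 1.5 times the reported count and 3 did not. In smooth-muscle-like against pericyte-like cells 5 members were called without doublet removal, adding Hes1 and Notch1. With cells thinned to 1000 UMIs, 1 member (Notch4, higher) passed 2-fold in both genotypes of arterial-like cells, and with the mean of per-cell CPM 1 (Jag1, higher) did so in pericyte-like cells. For single members, 521 values kept direction and call, 18 lost the call, 11 gained it and 12 changed sign. The Jag1 log2 difference between smooth-muscle-like and pericyte-like cells was -0.0043 with DESeq2, -0.005 without the replicate block, from -0.0357 (without WT sham) to 0.0862 with 1 library left out, -0.0081 without WT 72 h, -0.0383 and -0.2871 at resolutions 0.5 and 2, -0.2038 without doublet removal and -0.276 in plain CPM; none passed a test. That of Hey1 was -0.0045 without WT 72 h, the lowest of a range up to 0.6877 with 1 library left out, -0.0718 at resolution 2 and -0.1936 without doublet removal. Jag1 in smooth-muscle-like against arterial-like cells was 0.4677 at resolution 0.5, where the arterial-like class held more cells in every library. In the WT and KO sham libraries that class held 526 and 659 cells, against 271 and 288 at resolution 1. At resolution 1 the Rbp7-led capillary-like cluster held 246 and 375 cells of these libraries, with a Jag1 mean of 34.2 CPM (n = 5 libraries). Which cells changed class was not tested. Their part in the Jag1 sign, or in the Notch1 and Hey1 calls lost at resolution 0.5, was not tested either. Leaving out 1 library in turn gave 6 to 7 members called in arterial-like against capillary-like, 2 to 4 in smooth-muscle-like against pericyte-like, 10 in pericyte-like against capillary-like and 9 to 10 in smooth-muscle-like against arterial-like cells. Without the library block the counts were 6, 3, 10 and 9. The exact sign-flip test over 6 libraries cannot go below p = 0.03125. Depth limits the 72 h libraries most, where arterial-like sums hold 13 and 12 cells.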

Other observations

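The genes whose pattern over 19 classes was most like that of a member (Pearson r of log2 CPM plus 1, among 12620 genes, with no test) are given with r. They were Exoc3l (0.973) and Arhgef15 (0.97) for Dll4, Mfge8 (0.9102) and Cyth3 (0.902) for Jag1, and Pcdh17 (0.9798) and Ushbp1 (0.973) for Jag2. For the receptors they were Hk1 (0.907) and Fmnl3 (0.898) for Notch1, Runx1 (0.907) and Sorl1 (0.905) for Notch2, Ednra (0.978) and Carmn (0.974) for Notch3, and Dnah2os (0.977) and Ripply3 (0.973) for Notch4. For the targets they were Prdm16 (0.943) and Myo10 (0.939) for Hey1, Cacng7 (0.977) and Aspn (0.965) for Heyl, and Clock (0.973) and Zfp74 (0.968) for Hes1. Classes of few UMIs weigh as much as large ones in this measure.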
